A study of Arabidopsis thaliana with 18 samples.

Results

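The 42 genes described here encode the core and linker histones of Arabidopsis thaliana and were chosen by gene identifier from the 37686 genes of the expression tables. They comprise 8 H4, 5 H3.1, 3 H3.3, 4 canonical H2A, 2 H2A.X, 3 H2A.W, 3 H2A.Z, 10 H2B and 3 linker H1 genes, and the single centromeric H3 gene HTR12 (CENH3). H4, H3.1, H2A and H2B, 27 genes, were treated as replication-coupled histones. H3.3, H2A.Z and H1, 9 genes, were treated as replacement or linker variants, and H2A.X, H2A.W and CENH3, 6 genes, as other variants.

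DNA is wound around octamers of H2A, H2B, H3 and H4, and replication-coupled histones supply the new octamers needed when chromatin is duplicated in S phase. H3.1 is loaded behind the replication fork by the chaperone CAF-1, whereas H3.3 is loaded outside S phase by HIRA and related factors and H2A.Z by the SWR1 complex. H2A.W marks plant heterochromatin, CENH3 marks centromeres, and H1 binds the linker DNA between nucleosomes. Unlike the replication-dependent histone messages of animals, plant histone mRNAs carry poly(A) tails.

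RNA was sequenced from detached first-pair rosette leaves of wild-type Columbia-0 seedlings in 6 groups of 3 libraries. Cultured leaves had spent 1 day as explants on sucrose-free B5 medium and came from seedlings aged 9, 12 or 15 days. The other groups were leaves of the same 3 ages taken before culture. All seedlings were raised under constant light on sucrose-containing Murashige and Skoog medium, and no genotype or chemical treatment other than culture distinguished the groups. No label ties a replicate to a sowing or batch of plants of its own, and each p-value therefore covers only the variation among these libraries, which may be technical.

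Library totals ran between 29664089 and 51126114 estimated counts, and the most abundant gene in every library was RBCS1A or RCA, both photosynthetic genes of leaf mesophyll. The 5 mesophyll markers summed to 19607 to 20538 TPM in cultured 15-day leaves and 21776 to 42780 TPM in 15-day leaves before culture. With culture at that age 2 of the 5 fell, where 20.8% of all genes tested fell. The sums were also lower in cultured leaves at the younger ages. They were 39526 to 45038 TPM against 53454 to 69202 TPM at 9 days, and 25314 to 29089 TPM against 55168 to 64049 TPM at 12 days. At 9 days 2 of the 5 fell and at 12 days 3, where 3.72% and 9.33% of all genes tested fell. The shoot meristem gene WUS and the root meristem genes PLT1 and PLT2 were at 0 in every library, and the other markers of both meristems had at most 6 counts. PYK10, a beta-glucosidase gene of the root list and the only one of its 5 genes tested, rose by 3.69 (log2) with culture at 15 days, with 2153, 2539 and 3719 counts in cultured leaves and 202, 193 and 80 counts before culture. The part of these markers in the results was not tested. Correlations between replicates ran between 0.906 and 0.986 (log2 CPM, across genes). Replicate 2 before culture stood apart at both 12 and 15 days: its genes deviated from their group means in a correlated way (0.683). The median deviation of 8 touch-induced genes from their group mean was 2.15 log2 units in that replicate at 12 days and 1.88 at 15 days. In the same groups it was -3.60 and 0.32 for replicate 1, and 1.59 and -2.36 for replicate 3. The libraries furthest from their group means were replicate 1 at 12 days and replicate 3 at 15 days, both on the low side. Over the 18 libraries the median deviation ran between -3.60 and 2.15. The summed level of the 8 genes was highest in replicate 2 at both ages. It was 3334 TPM there against 143 and 1819 TPM at 12 days, and 8249 TPM against 1102 and 255 TPM at 15 days. In replicate 2 before culture the median replication-coupled histone gene deviated by -0.59 at 12 days and 0.05 at 15 days. The part of that deviation in the results was not tested, and each count was recomputed without those 2 libraries.

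All 5 H3.1 genes encode the same protein of 136 residues, as do all 8 H4 genes with 103 residues and all 3 H3.3 genes with 136 residues. H3.1 and H3.3 differ at 4 of 136 positions (97.1% identity), CENH3 is 43.8% identical to H3.1, and H1.3 is 32.1 to 34.1% identical to H1.1 and H1.2. The 10 H2B genes encode 10 different proteins. Every H4, H3.1 and H2B gene, 23 in all, has 1 coding exon, and the other 19 genes have between 2 and 9. Coding sequences of the H4 genes are 78.8 to 98.1% identical. Reads that fitted more than 1 gene were divided by the authors' quantifier. Counts were fractional for 14 of the 42 genes in at least 1 library, against 14.7% of all genes in the tables. Not all of the 14 need share reads with a histone copy. Several overlap another annotated gene, among them H1.1 on the opposite strand and HTR3 on the same strand.

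The upstream sequences of these genes carry short motifs described in plant histone promoters. The octamer CGCGGATC, on either strand, lies within 300 bases upstream of the annotated start of 10 of the 42 genes (23.8%), against 41 of 27443 protein-coding genes (0.149%). It was found upstream of 3 of 5 H3.1, 2 of 8 H4, 2 of 4 H2A and no H2B genes. The hexamer ACGTCA lies upstream of 12 of the 42 genes (28.6%), including 8 of 10 H2B genes, against 8.72% of all coding genes. One of the E2F-type octamers TTTCCCGC, TTTGGCGC, TTTCGCGC or TTTGCCGC, bound in plants by the S-phase regulators of the E2F family, lies upstream of 4 members (9.52%: AT3G45930, AT3G46320, HTR13 and HTB2), against 1.57% of all coding genes. Matches of different motifs overlapped in 0 of the 42 windows.

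The following 6 upstream windows show the motifs beside genes whose levels are given below, as the 200 bases before each annotated transcript start, 5′ to 3′ on the gene's strand, in the RefSeq TAIR10.1 assembly. Capitals mark a match to 1 of the motifs on either strand, no other annotated gene overlaps any of these windows, and a match is a description of letters. HTR2 (H3.1) lies on the minus strand with its window at chr1:2972335-2972534, and its octamers start 90 and 19 bases upstream.
HTR2: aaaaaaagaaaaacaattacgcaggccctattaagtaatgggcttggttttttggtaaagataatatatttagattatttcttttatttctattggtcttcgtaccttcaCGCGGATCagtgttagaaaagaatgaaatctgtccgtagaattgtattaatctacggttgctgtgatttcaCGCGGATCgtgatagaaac
HTR1 (H3.1) lies on the minus strand with its window at chr5:26120582-26120781 and an octamer 126 bases upstream.
HTR1: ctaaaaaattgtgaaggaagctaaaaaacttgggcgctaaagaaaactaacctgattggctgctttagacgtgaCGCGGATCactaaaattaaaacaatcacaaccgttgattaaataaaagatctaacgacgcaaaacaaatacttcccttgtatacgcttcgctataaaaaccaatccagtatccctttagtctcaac
AT5G59690 (H4) lies on the plus strand with its window at chr5:24051274-24051473 and an octamer 71 bases upstream.
AT5G59690: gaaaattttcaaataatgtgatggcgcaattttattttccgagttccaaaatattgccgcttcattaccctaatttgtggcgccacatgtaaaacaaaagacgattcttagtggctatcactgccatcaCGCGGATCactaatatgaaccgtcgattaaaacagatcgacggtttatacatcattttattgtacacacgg
HTA10 (H2A) lies on the plus strand with its window at chr1:18926611-18926810, and its octamers lie 74 and 10 bases upstream in opposite orientations.
HTA10: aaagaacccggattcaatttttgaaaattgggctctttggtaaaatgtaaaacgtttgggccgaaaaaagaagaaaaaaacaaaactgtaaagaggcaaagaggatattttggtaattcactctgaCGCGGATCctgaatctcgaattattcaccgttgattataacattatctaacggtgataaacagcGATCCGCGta
HTA6 (H2A.W) lies on the minus strand with its window at chr5:24116221-24116420 and an octamer 116 bases upstream.
HTA6: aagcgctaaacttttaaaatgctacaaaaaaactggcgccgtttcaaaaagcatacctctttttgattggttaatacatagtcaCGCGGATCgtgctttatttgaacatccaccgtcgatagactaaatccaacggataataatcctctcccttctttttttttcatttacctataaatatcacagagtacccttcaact
HTB2 (H2B) lies on the minus strand with its window at chr5:7652715-7652914, with a hexamer 195 bases and an E2F-type octamer 161 bases upstream.
HTB2: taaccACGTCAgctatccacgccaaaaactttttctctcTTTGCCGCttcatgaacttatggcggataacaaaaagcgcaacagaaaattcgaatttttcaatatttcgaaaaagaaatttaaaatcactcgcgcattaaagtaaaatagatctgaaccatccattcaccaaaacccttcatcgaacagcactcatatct

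Levels per unit length differed widely within and between classes. Averaged over the 18 libraries, the 3 H3.3 genes were the most abundant histone messages, with 518 TPM (a level corrected for transcript length) for HTR5, 439 TPM for HTR4 and 210 TPM for HTR8. The highest H4 gene was AT5G59690 at 176 TPM, the highest H2B gene HTB11 at 159 TPM, and the highest H3.1 gene HTR1 at 132 TPM. CENH3 averaged 3.99 TPM and the H2B gene HTB10 was the lowest member at 1.19 TPM.

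The differences below are log2 fold changes from edgeR's quasi-likelihood test over 20952 genes, all 42 members included. A gene was called at a Benjamini-Hochberg adjusted p under 0.05 over all genes tested. Levels by library are given in CPM, read counts scaled to library size.

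Before culture, replication-coupled histone messages were lower in older leaves. In 15-day against 9-day leaves, 28 of the 42 genes were lower and 2 higher, where 22% of all genes tested were lower and 23.2% higher. The fall took in 22 of 27 replication-coupled genes (all 5 H3.1, 7 of 8 H4, 3 of 4 H2A and 7 of 10 H2B), with none higher. Of the 9 replacement and linker genes, 2 fell and 2 rose. The median difference was -1.67 over replication-coupled genes, -0.11 over replacement and linker genes, and 0.07 over all genes tested. In whole leaves, fewer dividing cells and less histone mRNA per cell cannot be told apart.

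The step between 12 and 15 days held most of these calls. In 15-day against 12-day leaves, 18 members were lower and 1 higher, where 9.3% of all genes were lower and 5.24% higher. In 12-day against 9-day leaves, 5 members were lower (HTB1, HTB6, HTB7, HTA13 and HTA11) and none higher by edgeR (0 at an unadjusted p under 0.05) or DESeq2 (0), where 4.02% of all genes were lower and 3.42% higher. At an edgeR unadjusted p under 0.05, 14 members were lower between 12 and 9 days. The median of that step was -0.55 over replication-coupled genes and 0.02 over all genes tested. The numbers called in both steps depended on the libraries fitted. For 12 against 9 days, the 5 members lower became 0 without replicate 1, without replicate 2 or on only the 2 groups concerned, and 10 with DESeq2. The 842 lower among all genes tested became 76, 127 and 299 in those 3 edgeR fits. For 15 against 12 days, the 18 members lower became 9 without replicate 1 or without replicate 3 and 0 on only the 2 groups concerned, where the 1948 lower among all genes became 433, 840 and 0.

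After 1 day of culture most histone messages were higher in 15-day leaves, and few were called at the younger ages. In 15-day leaves, 24 of the 42 genes were higher after culture than before it and 3 lower, where 21.1% of all genes were higher and 20.8% lower. In 12-day leaves 1 gene was higher, HTB7, and none lower by edgeR (2 at an unadjusted p under 0.05) or DESeq2 (0), where 10.4% of all genes were higher and 9.33% lower. In 9-day leaves 6 were lower (HTA11, HTR3, HTB5, HTB6, AT5G59690 and HTA13) and none higher by edgeR (1 at an unadjusted p under 0.05) or DESeq2 (0), where 5.82% of all genes were higher and 3.72% lower. At an edgeR unadjusted p under 0.05, 17 members were lower at 9 days. DESeq2 called 9 of them lower there, with 1370 lower of 20875 genes. The median 9-day response was -0.61 over replication-coupled genes and -0.006 over all genes tested.

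At 15 days 19 of 27 replication-coupled genes rose and none fell, with a median of 1.16. The 9 replacement and linker genes had a median of -0.38, with 2 higher and 3 lower, and the median over all genes tested was -0.07. Leaving out replicate 1 took the 24 calls to 15, the largest loss of any single replicate. The 4417 higher among all genes tested became 2542 in that fit. The 6 calls at 9 days became 0 without replicate 1 or without replicate 2, 14 without replicate 2 before culture at 12 and 15 days, and 18 in a fit on the 9-day groups alone. The 780 lower among all genes tested became 46, 257, 1661 and 1291 in the same fits. HTB7 at 12 days lost its call without replicate 1 or without replicate 2.

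In cultured leaves few histone genes differed with age. In 15-day against 9-day cultured leaves, 2 members were higher, HTB10 and HTB7, and none was lower by edgeR (4 at an unadjusted p under 0.05) or DESeq2 (0), where 10.8% of all genes were higher and 13.1% lower. None of the 28 genes that were lower with age before culture was called in cultured leaves by edgeR, although 2 members were called lower under each of 4 other fits. HTB7 lost its call when any 1 replicate was left out, and HTB10 without replicate 1. A missed threshold does not show equal levels: the SE of these differences had a range of 0.16 to 0.98 log2 units.

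**Figure D1:**
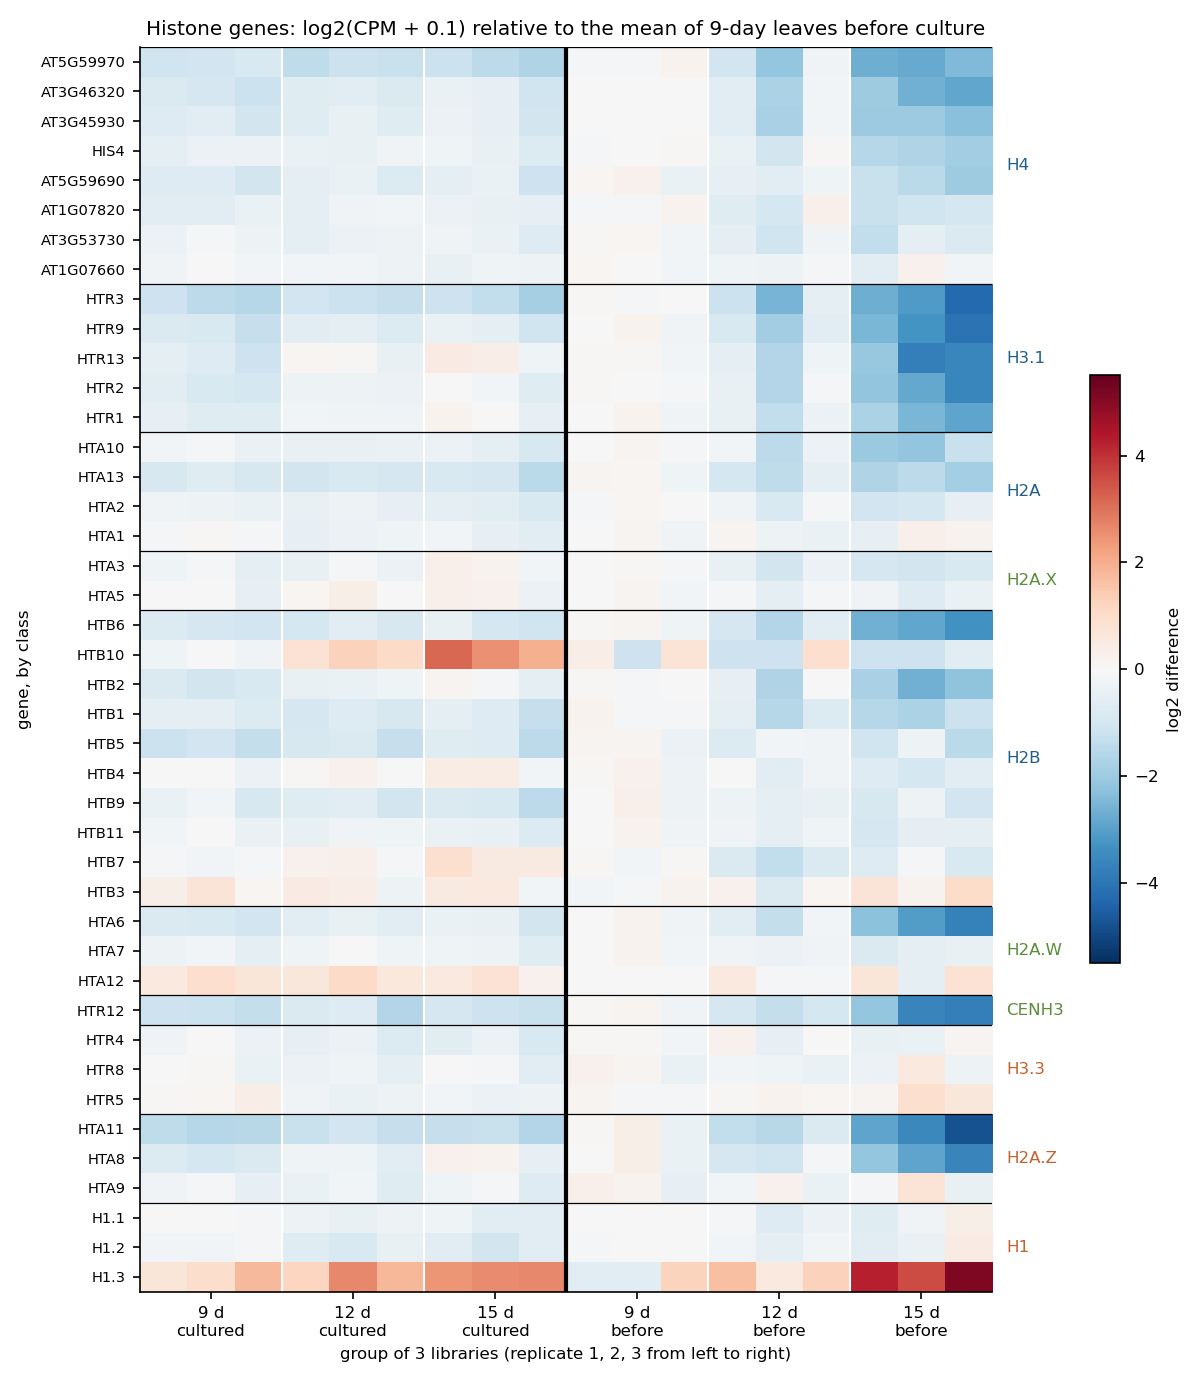
Levels of the 42 histone genes in each of the 18 libraries, as log2(CPM + 0.1) minus the mean of 9-day leaves before culture, with genes in rows by class and the cultured groups left of the groups before culture. In the 15-day libraries before culture the genes in blue include H3.1, CENH3, HTA6, HTA8, HTA11, HTB6 and the H4 genes AT5G59970 and AT3G46320. H1.3 is red there.

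The difference between the culture responses was tested directly. The response at 15 days minus that at 9 days was higher for 24 members and lower for 2, where 11% of all genes were higher and 9.77% lower. It was higher for 19 of 27 replication-coupled genes, with a median of 1.42 against -0.10 over all genes tested. Of the replacement and linker genes, HTA8 and HTA11 were higher and H1.3 and HTR5 lower, and the median was -0.23. Without replicate 1 the 24 became 11, and without replicate 2 they became 19, while the 2313 higher among all genes tested became 510 and 1148.

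Between 15 and 12 days the difference in response was higher for 11 members and lower for none by edgeR (1 at an unadjusted p under 0.05; DESeq2 called 1), where 1.96% of all genes were higher and 0.821% lower. These 11 were HTR1, HTR2, HTR9, HTR13, HIS4, AT3G46320, HTB2, HTB6, HTA6, HTA8 and HTA11, and leaving out any 1 replicate, or fitting only the groups concerned, took the count to 0. The 410 higher among all genes tested likewise became 0 without replicate 1 or without replicate 3, 72 without replicate 2 and 5 on only the groups concerned. Between 12 and 9 days edgeR called 0 members, with 17 higher and 1 lower at an unadjusted p under 0.05 and 1 higher by DESeq2, where 0.0143% of all genes were higher and 0.0382% lower. Only 3 higher and 8 lower genes were called among all genes tested in that comparison.

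**Figure D2:**
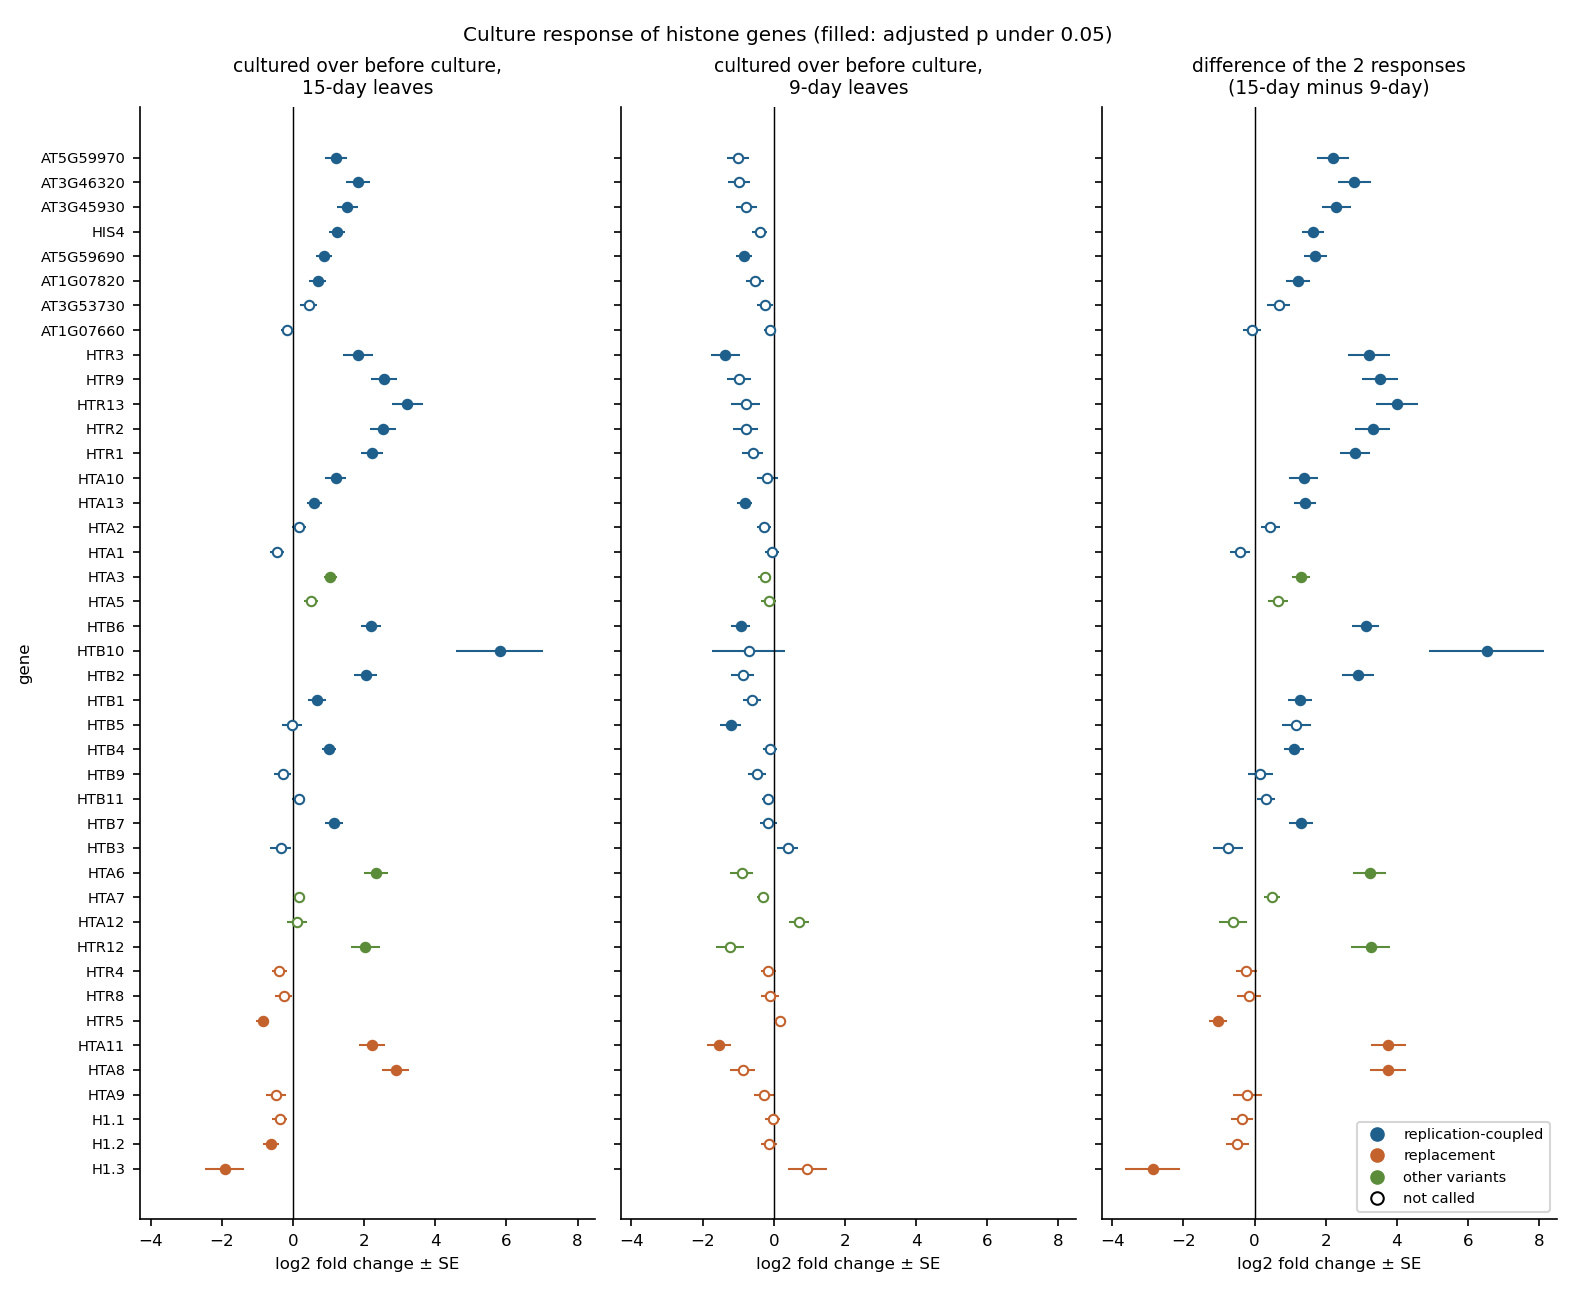
Log2 fold change (points) and SE (bars) of the 42 genes for culture in 15-day leaves, culture in 9-day leaves and the difference of the 2 responses, coloured by class group and filled where the adjusted p is under 0.05. The H3.1 genes lie between 1.84 and 3.21 in the 15-day panel, and the H3.3 genes between -0.85 and -0.26.

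The H3.1 genes moved together in both directions. HTR1 (AT5G65360), the most abundant of them, had 62.4, 54.3 and 53.9 CPM in cultured 9-day leaves, 75.9, 75.2 and 74.9 CPM in cultured 12-day leaves and 97.4, 83.7 and 61.5 CPM in cultured 15-day leaves. Before culture it had 85.2, 96.8 and 74.8 CPM at 9 days, 63.5, 32.8 and 67.9 CPM at 12 days and 25.6, 14.9 and 11.3 CPM at 15 days. The 15-day libraries before culture lay below every other library, and at 9 days the cultured libraries all lay below the uncultured ones. Culture at 15 days raised HTR1 by 2.23 ± 0.30 (SE, edgeR adjusted p = 6.7e-05), and age before culture lowered it by a change of -2.31 ± 0.30 between 15 and 9 days (edgeR adjusted p = 3.6e-05).

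HTR13 (AT5G10390) showed the largest difference in response of the H3.1 genes, 4.00 ± 0.59 between 15 and 9 days (edgeR adjusted p = 0.00059). HTR13 had 14, 12.5 and 9.16 CPM in cultured 9-day leaves, 21.9, 21.1 and 15.5 CPM in cultured 12-day leaves and 28, 26.1 and 17.2 CPM in cultured 15-day leaves. The uncultured leaves had 21.3, 21.7 and 18.7 CPM at 9 days, 14.5, 6.62 and 17.2 CPM at 12 days and 4.69, 1.41 and 1.61 CPM at 15 days. The lowest cultured 15-day library was still above the highest 15-day library before culture. HTR13 lies 577 bases from HTR9, another H3.1 gene on the same strand of chromosome 5, which rose by 2.56 with culture at 15 days. Over the 5 genes the culture response at 15 days was 1.84 to 3.21 and the age difference before culture -3.25 to -2.31, and all 5 kept both calls when any 1 replicate was left out.

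H3.3, which replaces H3.1 outside replication, did not follow H3.1. HTR5 (AT4G40040) had 389, 398 and 485 CPM in cultured 9-day leaves, 324, 288 and 307 CPM in cultured 12-day leaves and 339, 297 and 305 CPM in cultured 15-day leaves. Leaves taken before culture had 409, 356 and 358 CPM at 9 days, 391, 429 and 397 CPM at 12 days and 415, 710 and 577 CPM at 15 days. At 15 days the groups did not overlap, with the cultured libraries lower, and the 15-day libraries before culture were all above the 9-day ones. The culture response at 15 days was -0.85 ± 0.18 (edgeR adjusted p = 0.0015) and the age difference before culture 0.60 ± 0.18 (edgeR adjusted p = 0.012), and each call was lost in a fit on its own groups alone and without replicate 2, whose 15-day library before culture had 710 CPM. Without replicate 2 the values were -0.62 for culture (edgeR adjusted p = 0.057) and 0.37 for age (edgeR adjusted p = 0.23). The age call was also lost without replicate 3, and without replicate 2 before culture at 12 and 15 days. HTR4, 42 bases from HTR5 on chromosome 4, and HTR8 were called in no comparison.

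The make-up of the H3 message pool differed between groups. H3.1 made up 20.4 ± 2.41% of H3.1 plus H3.3 TPM in cultured 9-day leaves, 31.2 ± 0.706% in cultured 12-day leaves and 31.8 ± 3.11% in cultured 15-day leaves (SD, n = 3). Before culture it made up 30.9 ± 1.21% at 9 days, 20.7 ± 6.70% at 12 days and 5.93 ± 3.83% at 15 days. The 15-day libraries before culture, at 10.3, 4.33 and 3.16%, lay below all others, and in cultured leaves the 9-day libraries were the low ones. Across all classes, replication-coupled messages made up 55.4, 62.4 and 61.6% of replication-coupled plus replacement TPM in cultured leaves of 9, 12 and 15 days, and 62.9, 55.6 and 37.6% before culture.

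**Figure D3:**
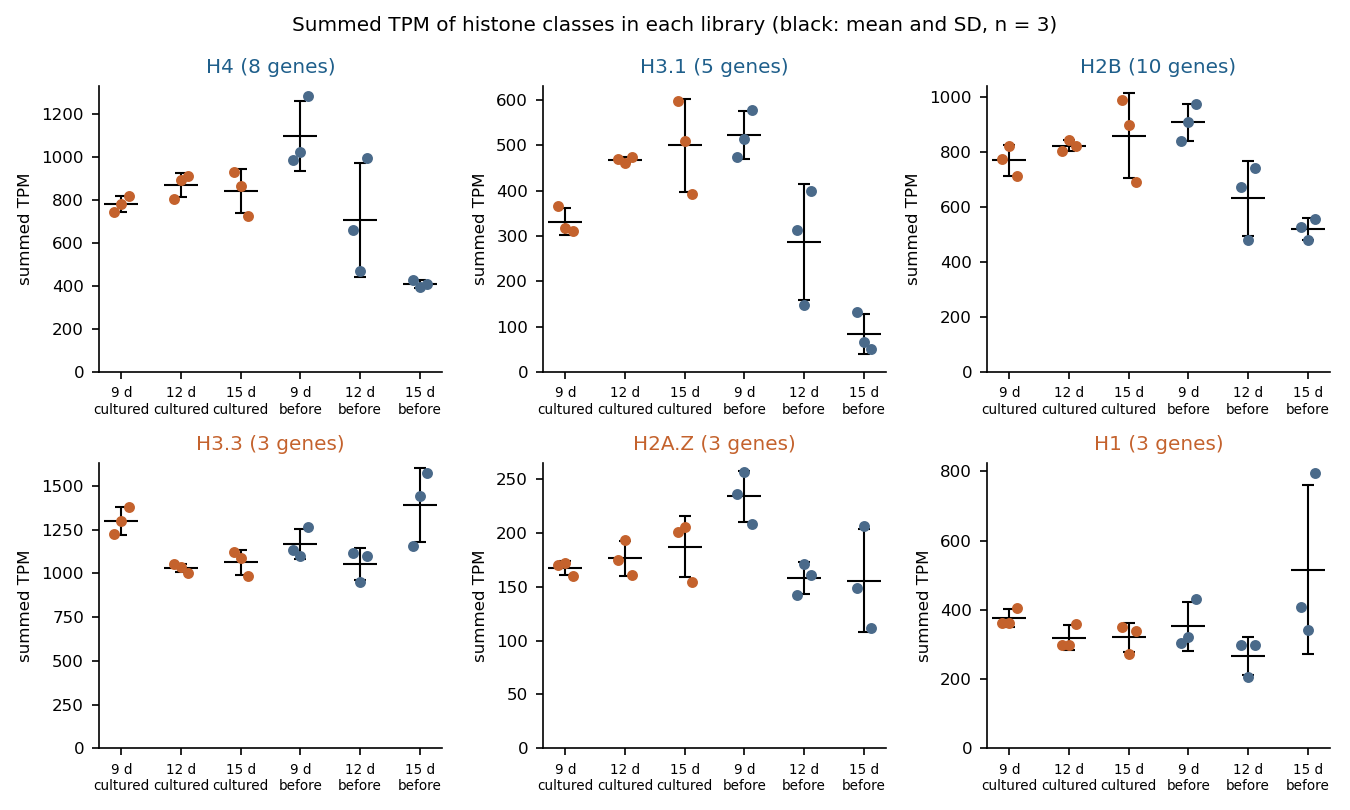
Summed TPM of 3 replication-coupled classes (upper panels) and 3 replacement or linker classes (lower panels) in each library, with cultured groups in orange left of groups before culture in blue, and black bars for mean and SD (n = 3). H3.1 sums to 500 TPM in cultured 15-day leaves and 83.1 TPM in 15-day leaves before culture, while H3.3 sums to 1063 TPM and 1390 TPM.

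H4, the partner of H3 in every nucleosome, rose and fell with H3.1 in most genes. AT5G59690 had 79, 78.8 and 65.8 CPM in cultured 9-day leaves, 89.2, 103 and 76.7 CPM in cultured 12-day leaves and 91.2, 100 and 59.8 CPM in cultured 15-day leaves. Before culture it had 142, 153 and 103 CPM at 9 days, 96.6, 88.4 and 110 CPM at 12 days and 55.9, 47.2 and 33.3 CPM at 15 days. At 15 days every cultured library was above every library before culture, at 9 days every one was below, and at 12 days the groups overlapped. The response was 0.88 ± 0.23 at 15 days (edgeR adjusted p = 0.0069) and -0.83 ± 0.23 at 9 days (edgeR adjusted p = 0.033), both lost without replicate 1 or replicate 2.

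Over the 8 H4 genes, 6 rose with culture at 15 days, and 7 fell with age before culture. The largest falls were those of AT5G59970 (-2.64) and AT3G46320 (-2.44). AT3G46320 is 1 of the 2 H4 genes with an E2F-type match. AT1G07660 was called in no comparison, with -0.17 for culture at 15 days and -0.14 for age before culture, although it encodes the same protein and has an octamer upstream. Its counts and those of AT1G07820, AT5G59690 and AT5G59970 were fractional in all 18 libraries, so shared reads limit the separation of these copies.

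The canonical H2A genes moved less than H3.1. HTA10 (AT1G51060) had 95.5, 102 and 82.8 CPM in cultured 9-day leaves, 78.7, 78.9 and 82.9 CPM in cultured 12-day leaves and 84, 73.7 and 57.8 CPM in cultured 15-day leaves. The uncultured leaves had 103, 115 and 98.4 CPM at 9 days, 96.1, 39.1 and 84.7 CPM at 12 days and 25.9, 23.3 and 44.4 CPM at 15 days. The 15-day groups did not overlap, and at 12 days replicate 2 before culture lay far below its group. HTA10 rose by 1.2 ± 0.29 with culture at 15 days (edgeR adjusted p = 0.0043), a call lost without replicate 1. HTA13 rose by 0.59, a call lost without replicate 1, without replicate 2 and on the 15-day groups alone, and HTA2 (0.16) and HTA1 (-0.44) did not pass.

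Among the 10 H2B genes, 6 rose with culture at 15 days, HTB10, HTB6, HTB2, HTB7, HTB4 and HTB1. The most abundant, HTB11 (AT3G46030), had 88.4, 96.9 and 75.6 CPM in cultured 9-day leaves, 73.7, 84.1 and 81.9 CPM in cultured 12-day leaves and 75.4, 72.6 and 58.1 CPM in cultured 15-day leaves. Leaves taken before culture had 99.1, 110 and 84 CPM at 9 days, 85.7, 67.4 and 82.4 CPM at 12 days and 50.5, 67.2 and 67 CPM at 15 days. The groups overlapped at every age, and the culture response at 15 days, 0.16 ± 0.17, did not pass (edgeR adjusted p = 0.48). HTB6 moved with the H3.1 genes instead, at 2.20 for culture at 15 days and -3.01 for age before culture.

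HTB10 (AT5G02570) had the largest fitted difference in response of all 42 genes, 6.52 ± 1.63 (edgeR adjusted p = 0.012), from very few counts. HTB10 had 0.0895, 0.117 and 0.0959 CPM in cultured 9-day leaves, 0.284, 0.432 and 0.354 CPM in cultured 12-day leaves and 1.88, 1.15 and 0.758 CPM in cultured 15-day leaves. Before culture it had 0.189, 0 and 0.275 CPM at 9 days, 0, 0 and 0.316 CPM at 12 days and 0, 0 and 0.0489 CPM at 15 days. At 15 days every cultured library was above every library before culture, and at 9 and 12 days the groups overlapped. Summed over 3 libraries, 157 counts in cultured 15-day leaves stood against 2 counts before culture, a ratio of depth-scaled counts of 61.2 (95% exact interval 16.7 to 509, counting error only), and the fitted log2 value of 5.81 depends on the prior count. HTB10 overlaps the H2A.W gene HTA12 on the opposite strand, at chr5:576655-577176 (TAIR10.1), and no source says whether counting used strand, so reads of the pair cannot be told apart. Without replicate 1 or without replicate 3 the difference in response was no longer called.

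**Figure D4:**
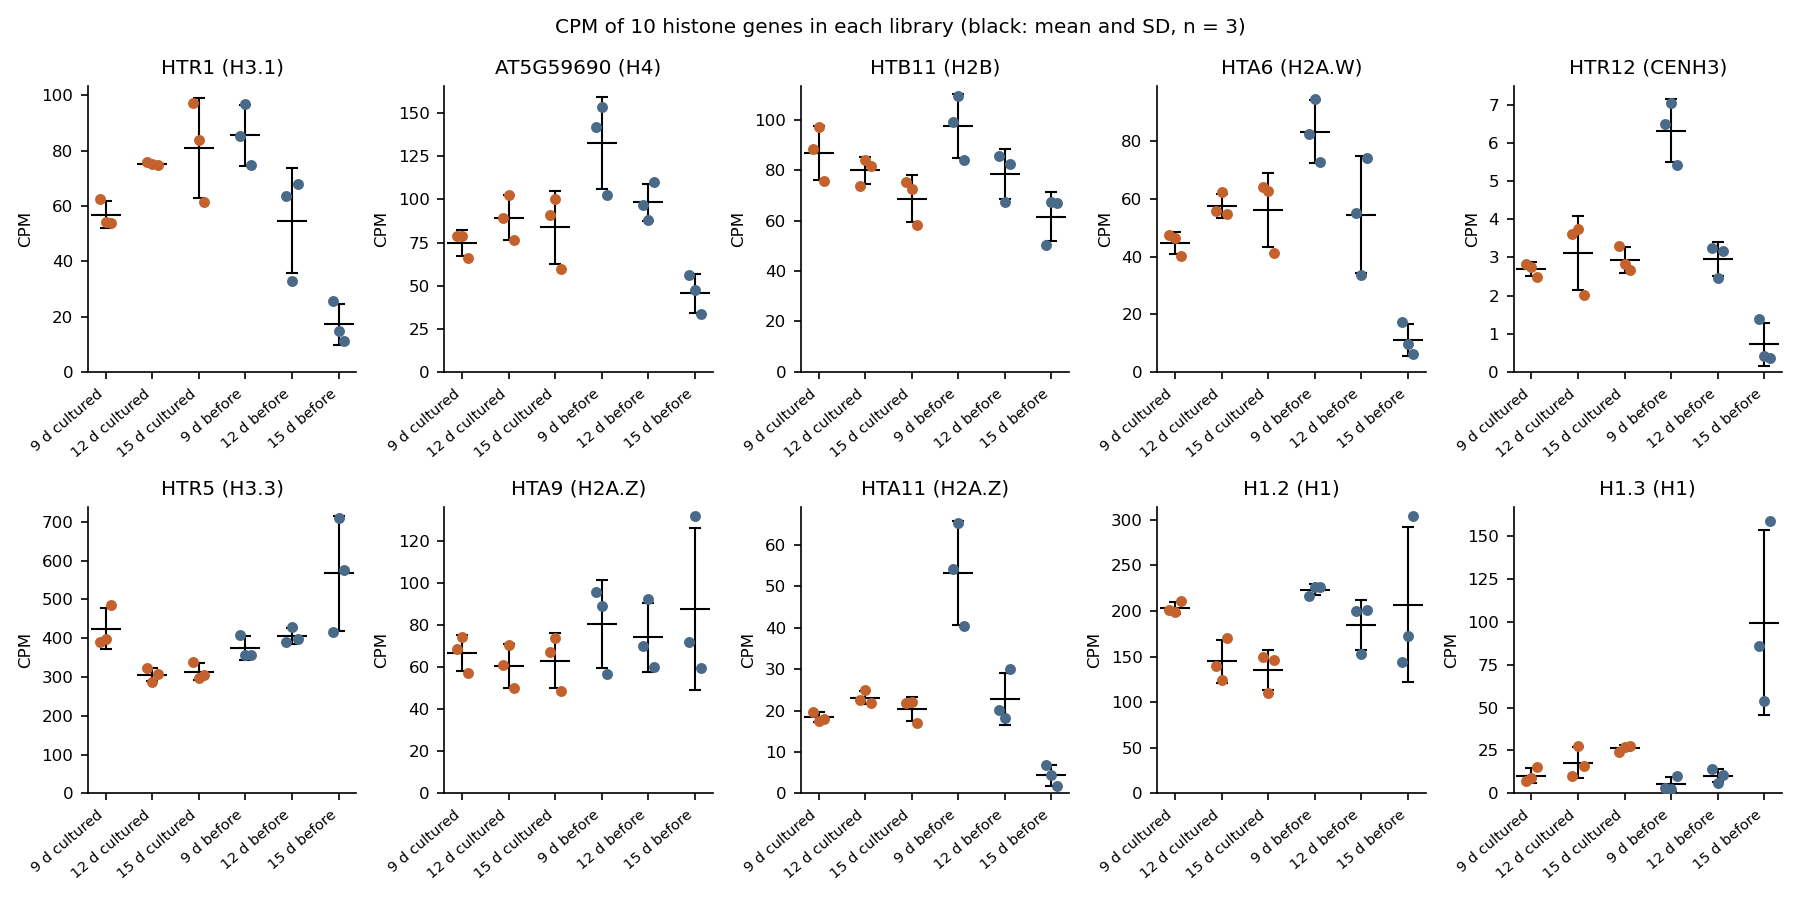
CPM of 10 histone genes in each library, with cultured groups in orange left of groups before culture in blue, and black bars for mean and SD (n = 3). HTR1, AT5G59690, HTA6, HTR12 and HTA11 are lowest in 15-day leaves before culture, and HTR5 and H1.3 are highest there.

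H2A.Z, a variant of promoters and gene bodies, was split between its genes. HTA9 (AT1G52740), the most abundant, had 68.9, 74.4 and 57.4 CPM in cultured 9-day leaves, 61.2, 70.8 and 50 CPM in cultured 12-day leaves and 67.2, 73.9 and 48.7 CPM in cultured 15-day leaves. The uncultured leaves had 96, 89.4 and 56.7 CPM at 9 days, 70.2, 92.5 and 60.4 CPM at 12 days and 72.2, 132 and 59.8 CPM at 15 days. The groups overlapped at every age, and HTA9 was called in no comparison. HTA11 (AT3G54560) averaged 20.3 ± 2.91 CPM in cultured 15-day leaves and 4.37 ± 2.57 CPM in 15-day leaves before culture (SD, n = 3), a rise of 2.22 ± 0.35 (edgeR adjusted p = 0.00022). HTA8 (AT2G38810) rose by 2.88 ± 0.38 (edgeR adjusted p = 4.9e-05), the largest rise of a gene outside H3.1 and H2B.

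HTA8 and HTA11 moved in the same directions as the H3.1 genes. Their age differences before culture were -2.89 for HTA8 and -3.61 for HTA11, the largest fall of all 42 genes, and the differences in response were both 3.76. At 9 days culture lowered HTA11 by a change of -1.54 ± 0.34 (edgeR adjusted p = 0.010). HTA9 differed from them, with -0.48 ± 0.29 for culture at 15 days and 0.12 ± 0.29 for age before culture. HTA9 supplied most of the H2A.Z message, so the H2A.Z sum was 187 ± 28.5 TPM in cultured 15-day leaves and 156 ± 47.9 TPM before culture, within the spread between libraries.

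H2A.W, the heterochromatin variant, also differed between its genes. HTA6 (AT5G59870) had 47.4, 46.5 and 40.2 CPM in cultured 9-day leaves, 55.7, 62.3 and 54.6 CPM in cultured 12-day leaves and 64.2, 62.8 and 41.3 CPM in cultured 15-day leaves. Leaves taken before culture had 82.6, 94.7 and 72.7 CPM at 9 days, 55.2, 33.8 and 74.3 CPM at 12 days and 17.3, 9.68 and 6.23 CPM at 15 days. The 15-day libraries before culture were the lowest of all, and culture raised HTA6 by 2.34 ± 0.34 there (edgeR adjusted p = 1e-04). For culture at 15 days HTA7 (0.18) and HTA12 (0.12) did not pass. HTA7 was lower with age before culture by a change of -0.58 (edgeR adjusted p = 0.0089), a call lost without replicate 1, without replicate 2 and on its own groups alone, and HTA12 was called in no comparison.

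Of the H2A.X genes, whose product is phosphorylated at DNA breaks, HTA3 rose with culture at 15 days by 1.05 ± 0.18 (edgeR adjusted p = 0.00046). HTA5 (AT1G08880), the more abundant, had 69.7, 71.9 and 52.4 CPM in cultured 9-day leaves, 77.7, 88.4 and 71.1 CPM in cultured 12-day leaves and 87, 83.6 and 57.4 CPM in cultured 15-day leaves. Before culture it had 72, 79.1 and 63.3 CPM at 9 days, 67.4, 50.3 and 68.2 CPM at 12 days and 62, 43.2 and 55.3 CPM at 15 days. At 15 days the cultured libraries averaged higher and overlapped those before culture, and the response of 0.51 ± 0.20 did not pass (edgeR adjusted p = 0.056).

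The centromeric H3 gene HTR12 (AT1G01370) followed H3.1 at a far lower level. HTR12 had 2.83, 2.75 and 2.49 CPM in cultured 9-day leaves, 3.61, 3.75 and 2.01 CPM in cultured 12-day leaves and 3.3, 2.82 and 2.67 CPM in cultured 15-day leaves. The uncultured leaves had 6.48, 7.05 and 5.43 CPM at 9 days, 3.25, 2.45 and 3.16 CPM at 12 days and 1.38, 0.418 and 0.367 CPM at 15 days. The 9-day libraries before culture lay above all others and the 15-day ones below all others. The culture response was 2.03 ± 0.40 at 15 days (edgeR adjusted p = 0.0011) and -1.23 ± 0.38 at 9 days, which did not pass (edgeR adjusted p = 0.055), and the difference of the 2 was 3.26 ± 0.55 (edgeR adjusted p = 0.0013).

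Linker histone H1.3 (AT2G18050), known in Arabidopsis as the stress-inducible H1, ran against the replication-coupled genes. H1.3 had 7.07, 8.69 and 15.4 CPM in cultured 9-day leaves, 10.1, 27.8 and 15.8 CPM in cultured 12-day leaves and 24.2, 27.2 and 27.7 CPM in cultured 15-day leaves. Leaves taken before culture had 2.86, 2.77 and 10.4 CPM at 9 days, 14.1, 6.31 and 10.7 CPM at 12 days and 86, 53.7 and 159 CPM at 15 days. The 15-day libraries before culture were above all others, including every cultured library. With age before culture H1.3 rose by 4.21 ± 0.60 between 15 and 9 days (edgeR adjusted p = 7.4e-05), a call kept without any 1 replicate. Culture at 15 days changed it by -1.92 ± 0.54 (edgeR adjusted p = 0.011), a call lost without replicate 1 or without replicate 3, and the difference in response of -2.86 ± 0.76 (edgeR adjusted p = 0.017) was lost without replicate 1 or without replicate 2.

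The main linker histones were steadier. H1.2 (AT2G30620) had 201, 199 and 211 CPM in cultured 9-day leaves, 140, 124 and 171 CPM in cultured 12-day leaves and 149, 110 and 147 CPM in cultured 15-day leaves. Before culture it had 217, 227 and 227 CPM at 9 days, 200, 153 and 202 CPM at 12 days and 145, 172 and 304 CPM at 15 days. The 15-day groups overlapped, and the response of -0.62 ± 0.24 (edgeR adjusted p = 0.047) lost its call when any 1 replicate was left out, without the count filter, in a fit on its own groups alone and under DESeq2's size factors.

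H1.1 (AT1G06760) had 145, 147 and 133 CPM in cultured 9-day leaves, 121, 108 and 118 CPM in cultured 12-day leaves and 122, 92.8 and 93.7 CPM in cultured 15-day leaves. The uncultured leaves had 144, 148 and 143 CPM at 9 days, 134, 87.7 and 118 CPM at 12 days and 92, 128 and 180 CPM at 15 days. The cultured and uncultured groups overlapped at every age, and H1.1 was called in no comparison. H1.3 made up 5.44 ± 2.22, 11.8 ± 6.35 and 18 ± 3.15% of H1 TPM in cultured leaves of 9, 12 and 15 days, and 2.72 ± 2.12, 6.21 ± 1.19 and 35.3 ± 8.39% before culture (SD, n = 3).

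Of the 28 members lower with age before culture, 22 were also among the 24 higher after culture at 15 days. Both comparisons use the same 3 libraries of 15-day leaves before culture, so they are not independent. Over all genes tested, 22% were lower with age and 21.1% higher with culture. The genes with both calls, or with no call in any comparison, were not counted over all genes tested. Neither number can therefore be read as particular to histones. The members called in none of the 10 comparisons were 9, namely AT1G07660, HTR4, HTR8, HTA1, HTA5, HTA9, HTA12, HTB3 and H1.1. Within these 9, H4, H2A and H2B each had 1 gene.

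The octamer and the E2F-type matches were set beside the responses, and the hexamer was not. Members with the octamer and members without it each included genes that rose and genes that fell. Of the 10 members with the octamer, 7 rose and 1 fell with culture at 15 days, with a median of 1.04. Of the 32 without it 17 rose and 2 fell, with a median of 0.68. Over all genes tested 21.1% rose and 20.8% fell. The octamer gene that fell was HTR5, whose window also overlaps a neighbouring gene. All 4 members with an E2F-type match were lower with age before culture (-3.00 to -2.10) and higher after culture at 15 days (1.53 to 3.21). Of the 38 members without such a match, 24 were lower and 2 higher with age before culture. After culture at 15 days 20 of them were higher and 3 lower, with a median of 0.63. Over all genes tested, 22% were lower and 23.2% higher with age. All 4 genes with a match are replication-coupled, whereas the 38 include every replacement, linker and other variant gene. Over the 27 replication-coupled genes, matched or not, 22 were lower with age and 19 higher after culture. The part of gene class in this difference was not tested.

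Genes that act with the histones were described from 4 lists. Of 22 DNA replication genes, 20 rose with culture at 15 days and none fell, with a median of 2.04, and 20 were lower with age before culture (median -2.46). Over all genes tested, 21.1% rose and 20.8% fell with culture, and 22% were lower with age. In 15-day against 9-day cultured leaves edgeR called 0 of the 22, with 3 higher and 0 lower at an unadjusted p under 0.05. Of all genes tested, 10.8% were higher and 13.1% lower there. The difference in response between 15 and 9 days was higher for 20, where 11% of all genes were higher. Values of the 20 lay between 1.93 for the helicase subunit gene MCM3 and 3.89 for the sliding clamp gene PCNA1. The 2 not called were RNR2A and ATXR5.

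Of 13 mitotic genes, 11 rose with culture at 15 days (median 2.40), 6 rose at 12 days, and 3 fell at 9 days. Over all genes tested, 21.1% rose at 15 days, 10.4% rose at 12 days and 3.72% fell at 9 days. With age before culture all 13 mitotic genes were lower (median -4.32), where 22% of all genes were lower. In cultured leaves 12 of the 13 were also lower at 15 than at 9 days (median -1.33), where the replication-coupled histones had 2 higher and none lower of 27. Of all genes tested, 10.8% were higher and 13.1% lower in that comparison. CYCB1;1, a cyclin of the G2-to-M transition, differed by -1.60 between 15-day and 9-day cultured leaves (edgeR adjusted p = 0.0022). Markers of the stomatal lineage, dividing cells of the young epidermis, moved with age too. At 15 against 9 days, 6 of 7 were lower before culture and 7 of 7 after culture, where 22% and 13.1% of all genes were lower. For culture at 15 days, where 21.1% of all genes rose and 20.8% fell, none of these 7 markers was called. Their summed level was 9.45 to 13.8 TPM in cultured 15-day leaves and 36 to 57.8 TPM in cultured 9-day leaves, and 11.1 to 19.5 TPM at 15 days and 56.3 to 95.5 TPM at 9 days before culture, and their part in the histone results was not tested.

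**Figure D5:**
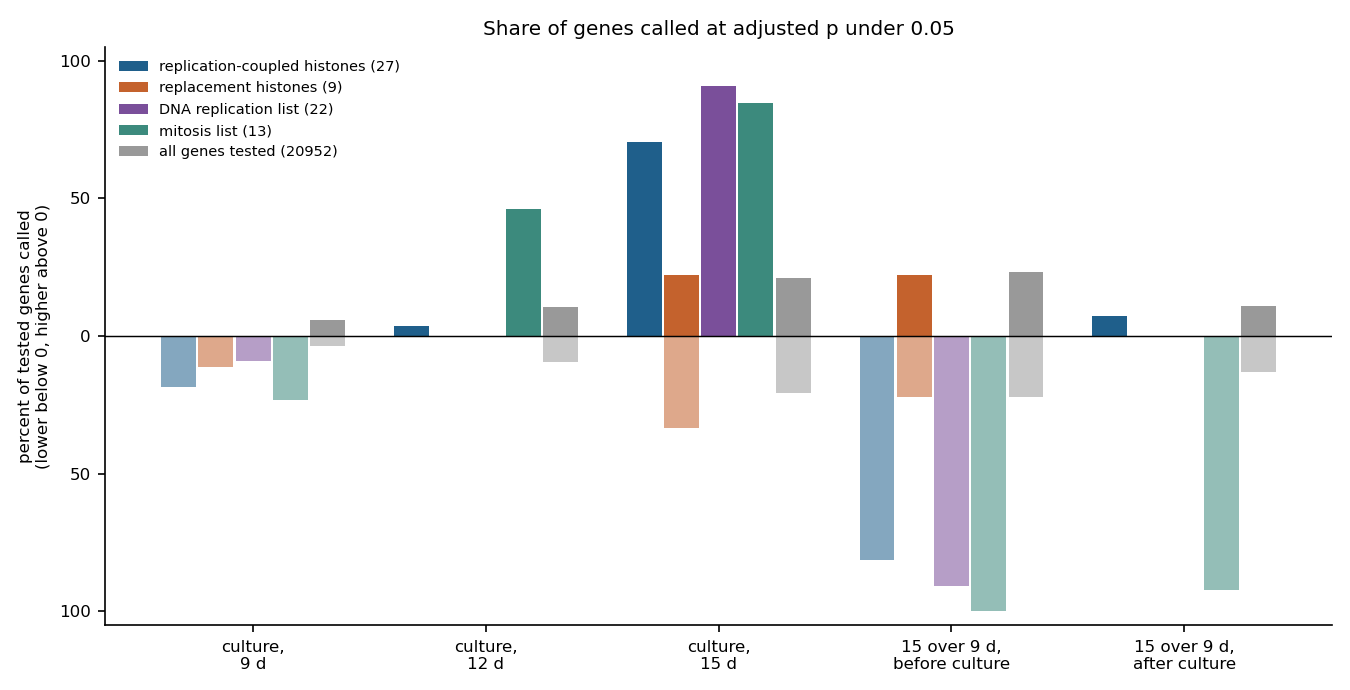
Percent of genes called higher (above 0) and lower (below 0, paler) in 5 comparisons for replication-coupled histones, replacement and linker histones, 2 lists of cell-cycle genes and all genes tested. In cultured leaves the 15 over 9 day comparison calls 12 of 13 mitotic genes, 13.1% of all genes tested and no histone gene lower.

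Of 23 histone chaperone and variant-loading genes, 8 rose and 3 fell with culture at 15 days, and 6 fell and 1 rose with age before culture. Over all genes tested 21.1% rose and 20.8% fell in the first comparison and 22% fell and 23.2% rose in the second, so the share of falls with age is near that of all genes. The difference in response was higher for 8 and lower for none, where 11% of all genes were higher and 9.77% lower. Values of the 8 lay between 0.51 for MSI1 and 2.91 for FAS2. The single genes that follow are examples named for the variant they act with. The 3 genes of the list that fell with culture at 15 days are not described singly, and a match of loaders to their variants was not tested. FAS2, FAS1 and MSI1 are the 3 subunits of CAF-1, the H3.1 loader. With culture at 15 days FAS1 rose by 1.64 ± 0.27 (edgeR adjusted p = 0.00029) and FAS2 by 1.90 ± 0.33 (edgeR adjusted p = 0.00042). HIRA, of the H3.3 loading complex, had a response of 0.19 ± 0.21 (edgeR adjusted p = 0.48), and the SWR1 genes PIE1, ARP6 and SWC6 did not pass. KNL2, needed for CENH3 loading, rose by 1.15 ± 0.40 (edgeR adjusted p = 0.032), and DDM1, a remodeller linked to H2A.W, by 1.68 ± 0.28 (edgeR adjusted p = 0.0003).

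Of 9 E2F and RBR regulator genes, 3 rose and 1 fell with culture at 15 days, too few to set apart from the 21.1% and 20.8% of all genes. The difference in response was higher for 3, where 11% of all genes were higher. Values of the 3 lay between 0.94 for RBR1 and 3.63 for the atypical E2F gene DEL1. E2FA was lower with age before culture by a change of -1.14.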

How the data were processed

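Poly(A) RNA of 18 leaf libraries was sequenced. Per the submitters' processing notes, the authors used Trimmomatic, STAR 2.5.3 and RSEM 1.3.0 with TAIR10. The deposited tables hold RSEM expected counts and TPM per gene, and neither strand use nor the annotation release is given in the sources used here. Expected counts were rounded and tested with edgeR 4.0.16 (TMM scaling, quasi-likelihood F test, 1 factor of 6 groups, filterByExpr with a minimum count of 10), which kept 20952 of 37686 genes with a common coefficient of variation of 0.34. Each SE is the log2 change divided by the square root of F. CPM uses TMM-scaled library sizes, and deposited TPM was used only for levels per length and shares. The 10 comparisons are 3 of culture, 3 of age before culture, 1 of age after culture and 3 differences of responses. Per-library values were reserved for the most abundant gene of each class, CENH3, the H1 genes, and the 2 highest and 2 lowest differences in response between 15 and 9 days.

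The fit for culture at 15 days was tried before use on simulated counts with 1 spread for all genes and independent libraries. That trial covered neither the differences of responses nor deviations shared between libraries. Members and lists were chosen with earlier results of these data known. Alternatives were DESeq2 1.42.0, its size factors, other count filters, each replicate left out, a replicate block, a replicate 3 term, only the groups compared, and omission of replicate 2 before culture at 12 and 15 days. Same-numbered samples deviated together in every pair for replicate 3 (correlations 0.13 to 0.583) but not for replicates 1 and 2 (-0.287 to 0.683), so the numbers were not taken as pairing, and a term for the replicate 3 libraries was fitted. The labels number 3 replicates, whereas the series' design text speaks of duplicates. Gene lengths matched RefSeq TAIR10.1 within 0.5 bases for 99.1% of 16745 single-transcript coding genes.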

Additional observations from a re-analysis of the deposited data

Results flagged for a closer look

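The culture response differed between ages by a direct test of the difference. Between 15 and 9 days 24 members had a higher response and 2 a lower one, by edgeR's quasi-likelihood test at an adjusted p under 0.05. As log2 differences (15-day response minus 9-day response), the H3.1 genes were HTR13 (4.00), HTR9 (3.54), HTR2 (3.32), HTR3 (3.21) and HTR1 (2.82). The H4 genes were AT3G46320 (2.81), AT3G45930 (2.30), AT5G59970 (2.22), AT5G59690 (1.71), HIS4 (1.64) and AT1G07820 (1.22). The H2B genes were HTB10 (6.52), HTB6 (3.12), HTB2 (2.92), HTB7 (1.31), HTB1 (1.28) and HTB4 (1.11). The canonical H2A genes were HTA13 (1.42) and HTA10 (1.38). Among variants, the values were HTA11 (3.76), HTA8 (3.76), HTR12 (3.26), HTA6 (3.24) and HTA3 (1.3). The lower ones were H1.3 (-2.86) and HTR5 (-1.03). The single largest value, that of HTB10, rests on 157 counts in cultured 15-day leaves against 2 before culture.

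Between 15 and 12 days 11 members had a higher response and 0 a lower one. The log2 differences were HTR13 (2.61), HTA8 (2.58), HTA6 (2.26), HTR2 (2.23), HTA11 (2.20), HTR9 (2.14), HTB6 (2.03), HTB2 (1.83), AT3G46320 (1.81), HTR1 (1.77) and HIS4 (1.21). All 11 of these calls were lost when any 1 replicate was left out, where the 410 higher among all genes tested became 0 without replicate 1, 72 without replicate 2 and 0 without replicate 3.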

How the results depend on the processing

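No called value of a member changed sign under any alternative tried. Of 127 calls of a member in a comparison, 67 were lost without replicate 1, 41 without replicate 2 and 32 without replicate 3, and 46 were lost, with 19 gained, when only the groups compared were fitted. DESeq2 lost 0 and gained 21. In the differences that follow, counts are of members and the cause was not tested, except that leaving out a replicate or groups leaves fewer samples.

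With a replicate block 127 calls were kept and 15 gained. The block gave 2 members lower for age after culture (against 0), 1 lower for culture at 12 days (against 0) and 1 lower for the response at 15 against 12 days (against 0). It otherwise kept every count within 1.5 times. The 6 replicate 3 libraries deviated together in every pair of groups, and those of replicates 1 and 2 in only some pairs: correlations of same-numbered deviations ran between -0.287 and 0.342 for replicate 1, -0.108 and 0.683 for replicate 2, and 0.13 and 0.583 for replicate 3. With a replicate 3 term 127 calls were kept and 13 gained, 2 were lower for age after culture and 1 lower for the response at 15 against 12 days.

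For age after culture, the 2 higher became 5 with DESeq2, 1 with a minimum count of 30, 6 with only the groups compared and 4 without replicate 2 before culture at 12 and 15 days, and the 0 lower became 2 in each of the last pair. With DESeq2, 10 were lower at 12 against 9 days and 2 higher at 15 against 12 days before culture, and 1 was higher for the response at 12 against 9 days and 1 lower at 15 against 12 days. With only the groups compared, 0 were lower at 12 against 9 days, 0 higher and 0 lower at 15 against 12 days and 1 higher at 15 against 9 days before culture. That setting also gave 1 lower for culture at 15 days, 1 higher and 18 lower for culture at 9 days, and 0 higher for the response at 15 against 12 days. Without replicate 2 before culture at 12 and 15 days, 2 were lower at 12 against 9 days before culture, 1 lower for culture at 12 days, 1 higher and 14 lower for culture at 9 days, and 1 lower for the response at 15 against 12 days. Among all genes tested, the 780 lower for culture at 9 days became 1291 with only the groups compared. They became 1661 without those replicate 2 libraries.

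Leaving out each replicate in turn gave 0 to 4 lower and 0 higher for culture at 9 days, 0 to 1 higher and 0 lower at 12 days, and 15 to 25 higher and 1 to 2 lower at 15 days. Before culture it gave 0 to 7 lower and 0 higher at 12 against 9 days, 9 to 17 lower and 1 higher at 15 against 12 days, and 21 to 27 lower and 1 to 2 higher at 15 against 9 days. After culture it gave 0 to 2 higher and 0 lower. Responses gave 0 higher and 0 lower at 12 against 9 and at 15 against 12 days, and 11 to 22 higher and 0 to 1 lower at 15 against 9 days. Among all genes tested, the 4417 higher for culture at 15 days became 2542, 3768 and 3588 without replicates 1, 2 and 3. The 780 lower for culture at 9 days became 46, 257 and 389. Size factors from DESeq2's method, averaged by group, differed from TMM scaling by at most 0.0272 log2 units in any comparison.

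With 3 libraries a group, modest changes were beyond detection, and HTB10 and HTR12 had few reads. The other limits are that reads shared between genes, by like sequence or by overlap, were divided by RSEM. Strand use is also not given for genes that overlap on opposite strands.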
